A study of Homo sapiens with 6 samples.

Results

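This account concerns the genes of the potassium, calcium, sodium, TRP, CLC, anoctamin and P2X channels, the pannexins, the connexins and the aquaporins in NB4 cells, a human acute promyelocytic leukemia line that carries the PML-RARA fusion. Members were matched by gene symbol, and the families were chosen with earlier results of these data known: 75 of the 18625 genes in the table matched the families, and 66 of them had a mean of at least 10 normalized counts and could be tested. NB4 cells were kept for 3 days with the solvent DMSO or with Tan I (tanshinone I, a diterpene of Salvia miltiorrhiza) at 10 μM, and 3 RNA-seq libraries were made for each group. The study used these libraries to ask how Tan I alters gene expression in leukemia cells. All 6 libraries come from 1 cell line, and the labels do not say whether replicates were separate cultures, so p-values here measure the spread between these libraries, which may be technical. In such bulk libraries, fewer expressing cells and less RNA per cell cannot be told apart.

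Ion channels are membrane proteins that let ions run down their gradients, and in white blood cells they set the membrane voltage, carry calcium signals and regulate cell volume. Potassium channels keep the inside of the cell negative and so maintain the pull on calcium entering through TRP, P2X and store-operated channels. CLC proteins of endosomes and lysosomes exchange chloride for protons, pannexins and connexins form wide pores that pass small molecules such as ATP, and aquaporins pass water and, in some members, glycerol or hydrogen peroxide.

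The libraries held 21502760 to 31679138 reads on the listed genes. They differed mainly along an axis that did not follow the treatment: the first principal component held 70.8% of the variance, and its scores were -48.0, 41.1 and -26.7 for DMSO replicates 1 to 3 and -46.8, 8.65 and 71.6 for Tan I replicates 1 to 3. DMSO replicate 2 and Tan I replicate 3 stood at 1 end, and replicate 1 of both groups at the other. Of 7 promyelocyte markers, 6 were listed, and their summed level was 71171 to 77317 normalized counts with DMSO and 42027 to 50381 in Tan I; 2 of the 6, the granule protein genes MPO and CTSG, were called lower without adjustment. The part of this difference in the results below was not tested. Markers of erythroid cells were not listed (0 of 3). T cell markers (2 of 3 listed) summed to 257 to 415 normalized counts with DMSO and 282 to 527 in Tan I, and epithelial markers (2 of 4) to 223 to 375 and 276 to 435. B cell markers (2 of 3) summed to 170 to 179 and 159 to 172, fibroblast markers (1 of 3) to 74.2 to 120 and 65.5 to 112, and neuronal markers (1 of 3) to 18.0 to 18.6 and 18.6 to 25.3.

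Of the 66 members tested, PANX2 and the calcium channel subunit CACNA2D4 were called higher in Tan I and the aquaporin AQP3 was called lower, by a rule that asked of limma an unadjusted p up to 0.05 together with a log2 difference of 0.25 or more either way. These 3 of 66 stand beside 2.42% of all 16887 genes tested, 1.32% called higher and 1.1% called lower. With Benjamini-Hochberg adjustment over all genes, limma called 0 members and 0% of all genes, and the adjusted p of every member was at least 0.999. At an unadjusted p of at most 0.05 alone, limma gave the same 3 members, beside 410 of the 16887 genes tested. With the fold threshold kept, edgeR's quasi-likelihood test on the recovered reads called 3 members unadjusted, beside 2.42% of all genes. With adjustment edgeR called 0 members and 0 genes. DESeq2 gave 1 adjusted call, PANX2, beside 0.107% of the genes to which it gave an adjusted p. The unadjusted limma count was 6 without Tan I replicate 1, where 8.86% of all genes were called, and 5 without DMSO replicate 2, where 2.76% were. The remaining 63 members did not pass the test. For 56 of the 66 members tested the range of the 3 DMSO libraries on the log2 scale was wider than the change. The same held for 86.7% of all genes tested. CACNA2D4, although called, was among the 56, with a DMSO range of 0.355 against a change of 0.354. The median log2 fold change of the members was -0.02, and that of all genes tested was -0.00.

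**Figure D1:**
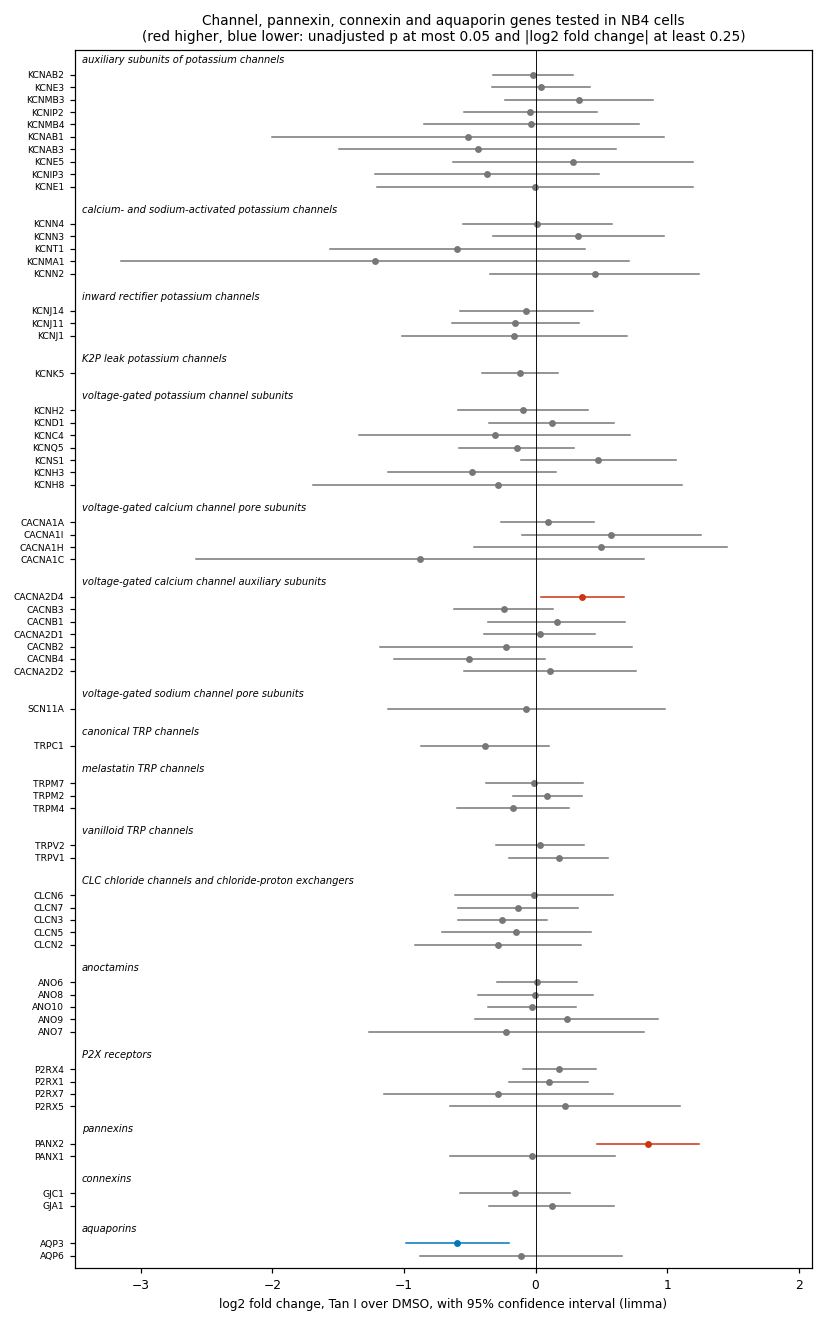
Log2 difference between Tan I and DMSO (positive: higher in Tan I) and its 95% confidence interval from limma for 64 of the 66 members tested, arranged by role; red marks the 2 members called higher and blue the 1 called lower without adjustment. The intervals of the other 61 members shown cross 0, and those of KCNMA1 and CACNA1C are among the widest.

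Pannexins form large pores through which cells release ATP and other small molecules, and PANX2 is the family member found mostly on membranes inside the cell. PANX2 (ENSG00000073150) is at chr22:50170731-50180295 (GRCh38, + strand), with 3 exons in its canonical transcript and no exon of another gene over its own. It had 262, 291 and 251 normalized counts in DMSO replicates 1 to 3 and 427, 451 and 592 in Tan I replicates 1 to 3. The groups did not overlap, and the lowest Tan I library was well apart from the highest DMSO library. The means were 268 ± 20.7 and 490 ± 89.1 (SD, n = 3 each). PANX2 thus rose 1.81-fold. In limma the log2 difference was 0.86 (SE 0.17, 95% confidence interval 0.47 to 1.24), with an adjusted p of 0.999 (0.00107 before adjustment). With DESeq2 on the recovered reads the adjusted p was 0.00700. In 17 alternative fits the difference ran from 0.71 to 0.95 and the adjusted p between 0.00115 and 1, and it was at most 0.05 in 2 of them. PANX2 was named in earlier results of these data, so its call is a description of these libraries and not independent evidence.

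Within each group PANX2 was highest in the library at the high end of the first component, DMSO replicate 2 or Tan I replicate 3. With the component score as a covariate, limma gave a log2 difference of 0.78 and an adjusted p of 0.00115. Under that fit 3 members, PANX2, AQP3 and CACNA2D4, were called with adjustment, beside 1.15% of all genes. The score was computed from the same libraries and genes that were tested, and that fit called 8.86% of all genes without adjustment.

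PANX1, the pannexin best known as an ATP release channel at the cell surface, had 97.0, 170 and 96.9 normalized counts with DMSO and 114, 99.1 and 135 in Tan I. The groups overlapped, with DMSO replicate 2 the highest of the 6 libraries. Its log2 fold change was -0.02 with a 95% confidence interval of -0.65 to 0.61. Per kb of annotated exons PANX2 had 86.3 normalized counts with DMSO and 158 in Tan I, against 42.6 and 40.7 for PANX1. PANX3 was not among the genes listed.

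**Figure D2:**
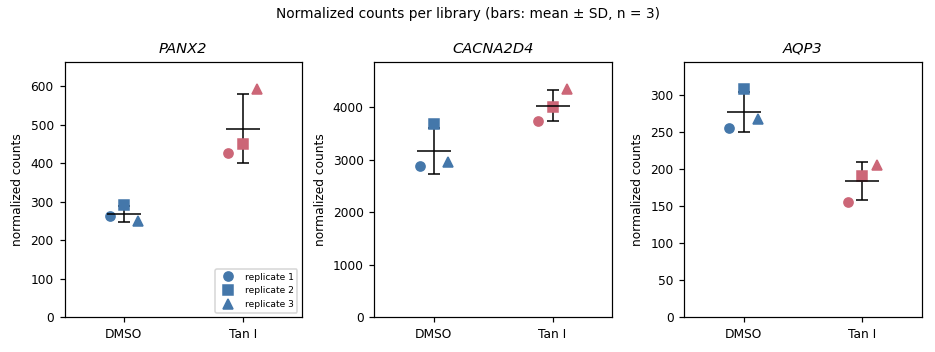
Normalized counts of the 3 members called without adjustment, by library, with the mean and SD of 3 replicates; the vertical axes start at 0. For PANX2 the Tan I libraries (427 to 592) lie above the DMSO libraries (251 to 291), for CACNA2D4 the nearest libraries of the groups almost touch (3680 and 3749), and for AQP3 the Tan I libraries (155 to 205) lie below the DMSO libraries (255 to 307).

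Aquaporins are represented by 4 genes. AQP3, an aquaglyceroporin that carries water, glycerol and hydrogen peroxide, was the most abundant of them. AQP3 (ENSG00000165272) is at chr9:33441156-33447596 (- strand), with 6 canonical exons. AQP8 (ENSG00000103375), which passes water and hydrogen peroxide, is at chr16:25215731-25228932 (+ strand), also with 6 canonical exons. No exon of another annotated gene overlaps either gene. In both genes the groups of libraries did not overlap, with Tan I lower for AQP3 and higher for AQP8, and the 250 bases before their RefSeq starts are shown because they differ in composition. Capitals mark GCGTG, the core letters of the response element of the aryl hydrocarbon receptor, searched on both strands. Promoters were found for 56 of the 75 members, but not for PANX2 or CACNA2D4.
AQP3, GRCh38.p14, chr9:33447594-33447843, - strand: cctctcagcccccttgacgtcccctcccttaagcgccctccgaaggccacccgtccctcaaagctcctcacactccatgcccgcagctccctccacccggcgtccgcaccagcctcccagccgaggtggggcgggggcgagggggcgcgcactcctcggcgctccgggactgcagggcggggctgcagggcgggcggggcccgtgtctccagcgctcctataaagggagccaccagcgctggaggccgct
AQP8, GRCh38.p14, chr16:25216697-25216946, + strand: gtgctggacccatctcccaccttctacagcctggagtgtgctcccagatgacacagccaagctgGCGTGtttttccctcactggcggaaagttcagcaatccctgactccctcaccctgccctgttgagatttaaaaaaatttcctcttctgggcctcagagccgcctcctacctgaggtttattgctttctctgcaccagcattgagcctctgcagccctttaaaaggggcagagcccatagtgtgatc
The AQP3 window was 73.6% G or C with 23 CpG dinucleotides and 0 matches, and the AQP8 window was 53.6% G or C with 3 CpG and 1 match. Over all 35116 promoter windows of this length the medians were 58.0% and 11 CpG, and 32.2% held the letters at least once. By the positions above, the AQP8 window lies inside the GENCODE span of the gene, downstream of its start, while the AQP3 window lies at the start of its gene. The windows are thus unlike in position. A match is only a description of these windows.

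AQP3 had 255, 307 and 267 normalized counts with DMSO and 155, 190 and 205 in Tan I. Every Tan I library lay below every DMSO library. The mean ± SD over 3 libraries was 277 ± 27.1 with DMSO against 183 ± 25.6 with Tan I. AQP3 thus fell to 0.662 times its DMSO level. In limma the log2 difference was -0.59 (SE 0.17), with an adjusted p of 0.999 (0.00861 before adjustment). In 17 alternative fits this difference ran from -0.68 to -0.48 and the unadjusted call held each time, while the adjusted p ran from 0.0120, with the component score as a covariate, to 1.

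AQP8 was barely detected. Its reads numbered 2, 3 and 3 with DMSO and 8, 9 and 9 with Tan I, that is 1.86, 2.89 and 2.34 normalized counts against 7.82, 9.49 and 12. The groups did not overlap. Summed over libraries there were 8 reads with DMSO and 26 with Tan I, a ratio of 4.05 after scaling by size factor, which rests on few reads. The gene was below the mean set for the test. Every gene in the table had a mean of at least 5.9 normalized counts, and AQP8, at 2.37 with DMSO and 9.77 with Tan I, reached that level only through its Tan I libraries, so its place in the table favoured this direction and no test is given. AQP8, like PANX2, was named in earlier results of these data, so neither its direction nor the gap between groups is independent evidence. AQP6, an intracellular aquaporin, had 46.6, 23.1 and 26.6 normalized counts with DMSO and 28.3, 28.5 and 28.0 in Tan I, with overlapping groups. AQP11 had 19, 8 and 12 reads in DMSO and 11, 7 and 4 in Tan I.

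Voltage-gated calcium channels consist of a pore subunit with α2δ and β subunits that carry it to the membrane and tune its gating. CACNA2D4 encodes α2δ-4, an auxiliary subunit known from photoreceptors. CACNA2D4 (ENSG00000151062) is at chr12:1791963-1918666 (- strand), with 38 canonical exons. It was the 4th most abundant member, with 2877, 3680 and 2954 normalized counts with DMSO and 3749, 4007 and 4346 in Tan I. The groups did not overlap, although Tan I replicate 1 lay only just above DMSO replicate 2. The means were 3170 ± 443 and 4034 ± 299 (SD, n = 3 each), a 1.28-fold rise. In limma the log2 difference was 0.35 (SE 0.13), with an adjusted p of 0.999 (0.0325 before adjustment). The unadjusted call was lost in several of the fits that left out 1 library. The unadjusted p was 0.122 without DMSO replicate 1, 0.119 without DMSO replicate 3, 0.0828 without Tan I replicate 2 and 0.0824 without Tan I replicate 3, with log2 fold changes of 0.29, 0.31, 0.36 and 0.30. In the same order, these fits called 1.07%, 1.19%, 0.947% and 1.6% of all genes, beside 2.42% with all 6 libraries. The call was also lost with quantile normalization (p of 0.0505) and in eBayes without the trend (p of 0.0597).

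The other calcium channel subunits did not pass the test. CACNA1A, the pore of P/Q-type channels and the most abundant pore subunit, had 838, 676 and 720 normalized counts with DMSO and 875, 842 and 672 in Tan I, with overlapping groups. CACNA1I, a T-type pore subunit, was low, with 23.3, 24.1 and 27.3 in DMSO and 47.9, 28.5 and 38.7 in Tan I. Its groups did not overlap, and its log2 difference was 0.58 (SE 0.29) (unadjusted p of 0.0866 in limma). Without Tan I replicate 2 it was 0.77 and was called without adjustment, beside 0.947% of all genes. CACNB4, a β subunit, had 65.3, 74.2 and 64.1 normalized counts with DMSO and 58.6, 36.9 and 49.3 in Tan I. Its groups also did not overlap, at a log2 difference of -0.50 (SE 0.25) (unadjusted p of 0.0774 in limma). Without Tan I replicate 1 the difference was -0.65 and CACNB4 was called, in a fit that called 8.86% of all genes. CACNA1H and CACNA1C were at means of 18.8 and 12.3, and CACNA1E and CACNA1S were below 10. The β subunits CACNB3, CACNB1 and CACNB2 and the α2δ subunits CACNA2D1 and CACNA2D2 had log2 fold changes from -0.24 to 0.16, none called.

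Potassium channel genes made up 30 of the 75 members, and 27 were tested. None of the 27 was called without adjustment. KCNAB2, the Kvβ2 subunit that binds Kv1 channels and has the fold of an aldo-keto reductase, was the most abundant member of all. It had 14076, 12423 and 14312 normalized counts with DMSO and 14008, 14177 and 12162 in Tan I, 28.3% of the summed level of all members. The groups overlapped closely. Its relatives KCNAB1 and KCNAB3 had means of 40.6 and 16.8. The other auxiliary subunits tested, KCNE3, KCNMB3, KCNIP2, KCNMB4, KCNE5, KCNIP3 and KCNE1, had means from 11.1 to 465.

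Among voltage-gated subunits, KCNH2, which encodes the hERG channel, had 936, 1457 and 1053 normalized counts with DMSO and 842, 1148 and 1227 in Tan I. Its groups overlapped. KCND1, an A-type channel, and KCNC4, a fast-activating Kv3 channel, followed with means of 935 and 650. KCNS1, a silent subunit that modifies Kv2 channels, had 34.5, 38.5 and 46.9 normalized counts with DMSO and 49.8, 50.6 and 68.0 in Tan I. KCNH3, of the ether-à-go-go family, had 31.7, 46.2 and 39.1 in DMSO and 23.5, 29.5 and 29.3 in Tan I. For both genes the libraries of the groups did not overlap, with log2 fold changes of 0.48 (standard error 0.25) and -0.48 (standard error 0.27) and unadjusted p-values of 0.0973 and 0.117 in limma. KCNQ5 and KCNH8 had means of 335 and 10.5, and KCNV2 was below 10.

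KCNN4, the calcium-activated channel that sustains calcium entry in blood cells, had 261, 399 and 298 normalized counts with DMSO and 244, 313 and 417 in Tan I. Its groups overlapped, and its log2 fold change was 0.01 with a 95% confidence interval of -0.55 to 0.58. KCNN2, a small-conductance relative, had 12, 10 and 15 reads in DMSO and 18, 14 and 10 in Tan I. Scaled by size factor these did not overlap, at 9.63 to 11.7 and 13.3 to 17.6 normalized counts, with a log2 difference of 0.45 (SE 0.34) and an unadjusted p of 0.225. KCNMA1, the pore of the large-conductance BK channel, had the largest negative log2 fold change of the members tested, -1.22, but also a standard error of 0.83. It had 58.7, 13.5 and 32.8 normalized counts with DMSO and 39.1, 10.5 and 4 in Tan I, so that the groups overlapped. Without Tan I replicate 1, KCNMA1 passed the unadjusted test, in a fit that called 8.86% of all genes. KCNN3 and KCNT1 had means of 66.1 and 33.8. KCNJ14, an inward rectifier, had 305, 417 and 284 normalized counts with DMSO and 246, 348 and 364 in Tan I, with overlapping groups, and its relatives KCNJ11 and KCNJ1 had means of 181 and 24. KCNK5, an acid-sensitive leak channel, had 462, 472 and 439 normalized counts with DMSO and 392, 418 and 453 in Tan I.

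In all, 8 of the 66 members tested had libraries that did not overlap between groups, 5 higher and 3 lower in Tan I, beside 7.89% of all genes tested. For each of the 8 the exact permutation test (two-sided) gave its minimum for 3 libraries against 3, p = 0.1. Among the 9 members below a mean of 10, AQP8 was the 1 gene whose groups did not overlap. The share over all listed genes below that mean was 8.23%, and nothing is read from it, since genes near the lowest listed level can be there through 1 group alone.

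P2X receptors are cation channels opened by extracellular ATP. P2RX4, found largely on lysosomes of immune cells, had 1429, 1645 and 1512 normalized counts with DMSO and 1580, 1732 and 1890 in Tan I. P2RX1, the rapidly desensitizing receptor of platelets and myeloid cells, had 1026, 1072 and 1095 in DMSO and 1131, 1299 and 1008 in Tan I. For both genes the groups overlapped, and the log2 fold changes were 0.18 and 0.10 with standard errors of 0.12 and 0.13. P2RX7, whose activation drives release of interleukin-1β in macrophages, had 678, 395 and 554 in DMSO and 732, 430 and 261 in Tan I. P2RX5 was instead highest in DMSO replicate 2 and Tan I replicate 3, with 90.4, 176 and 74.2 in DMSO and 86.0, 136 and 161 in Tan I. Of these 4 receptors, 0 were called.

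TRP channels were represented by 7 genes, of which 0 were called. TRPM7, a magnesium- and zinc-permeable channel fused to a kinase, had 3212, 2367 and 2729 normalized counts with DMSO and 2990, 2926 and 2334 in Tan I. TRPM2, a calcium channel opened by ADP-ribose under oxidative stress, had 1071, 1089 and 1045 in DMSO and 1043, 1147 and 1228 in Tan I. TRPM2 had 1 of the narrowest intervals, with a log2 fold change of 0.09 between -0.17 and 0.35 at 95% confidence. TRPV2, the vanilloid channel most typical of phagocytes, had 451, 553 and 500 in DMSO and 453, 534 and 557 in Tan I. TRPC1 had 120, 106 and 152 in DMSO and 107, 84.3 and 96.0 in Tan I, with overlapping groups. TRPV1 and TRPM4 had means of 187 and 161, and TRPM1 was below 10.

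Of the 5 CLC genes 0 were called, and their log2 fold changes ran from -0.29 for CLCN2 to -0.01 for CLCN6, the latter between -0.24 and 0.18 over its alternatives. CLCN6, an exchanger of late endosomes, had 5930, 3316 and 4898 normalized counts with DMSO and 5792, 4645 and 3501 in Tan I. CLCN7, the lysosomal exchanger, had 4509, 3140 and 4258 in DMSO and 4136, 3863 and 2863 in Tan I. CLCN3, CLCN5 and CLCN2 had means of 491, 408 and 169. In CLCN6 and CLCN7 DMSO replicate 2 was the lowest DMSO library and Tan I replicate 3 the lowest Tan I library. Anoctamins include calcium-activated chloride channels and lipid scramblases. ANO6, the scramblase that exposes phosphatidylserine on activated platelets, had 1920, 1738 and 1836 in DMSO and 2154, 1729 and 1683 in Tan I. ANO8 had 1311, 935 and 1302 in DMSO and 1319, 1264 and 955 in Tan I, and ANO10, ANO9 and ANO7 had means of 374, 27.6 and 10.7. The log2 fold changes of the 5 anoctamins lay between -0.22 and 0.24.

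Connexins, which build gap junctions between neighbouring cells, included GJC1 and GJA1. GJC1 (connexin 45) had 883, 623 and 817 normalized counts with DMSO and 802, 687 and 588 in Tan I, and GJA1 (connexin 43) had a mean of 223, each with overlapping groups. Of the voltage-gated sodium channel pore subunits, 1 of 10 annotated genes was listed. SCN11A, a pore subunit of sensory neurons, had 29, 12 and 15 reads in DMSO and 16, 18 and 8 in Tan I.

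By level, 11 members had a mean of at least 1000 normalized counts, 30 had 100 to 1000, 25 had 10 to 100 and 9 fell below 10. GENCODE release 44 holds 210 protein-coding genes with symbols of these families, and 135 of them had no row in the table, in which every gene had a mean of at least 5.9. Per kb of annotated exons, which allows genes to be compared, the order in DMSO was KCNAB2 (790 normalized counts per kb), CLCN6 (577), CLCN7 (476), CACNA2D4 (425) and P2RX1 (270), followed by ANO8, TRPM7, ANO6, P2RX4 and TRPM2 between 236 and 168. The library values of CLCN6, CLCN7 and CACNA2D4 overlapped in DMSO, and so did those of neighbours from ANO8 to P2RX4. Exons of an antisense gene overlap 32 members, KCNAB2, CLCN6, CLCN7 and TRPM7 among them, and exons of another gene on the same strand overlap 12, so their levels may include reads of those genes. Exon lengths cover all annotated transcripts, so genes with many long transcripts, such as CACNA1A with 43150 bases, are placed low on this scale.

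**Figure D3:**
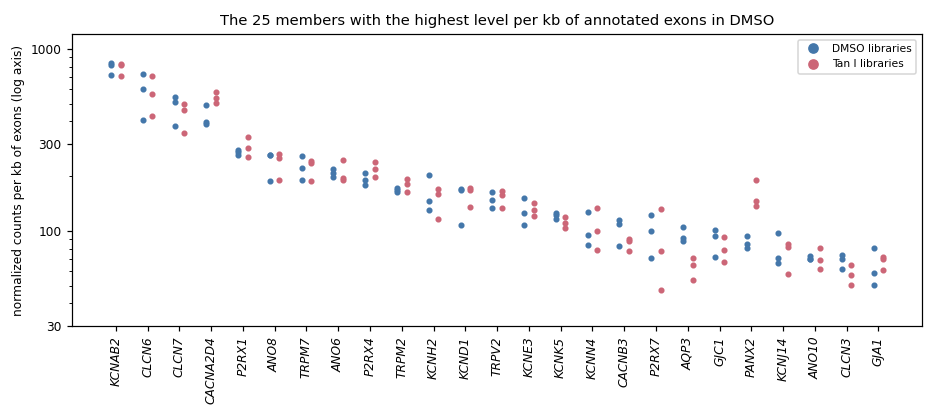
Normalized counts per kb of annotated exons, on a log axis, for the 25 members with the highest DMSO mean on this scale; each point is 1 library. KCNAB2, CLCN6, CLCN7 and CACNA2D4 head the list, and for PANX2 and AQP3 the points of the groups lie apart.

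Much of the spread of the members followed the libraries and not the treatment. For 30 of the 66 members (45.5%), DMSO replicate 2 was the lowest DMSO library and Tan I replicate 3 the lowest Tan I library. The share over all genes tested was lower, at 32.1%. For 15 members (22.7%) these same libraries were the highest, against a higher share of 35.0% over all genes. The difference in shares was not tested. The first set included the widest ranges. KCNMA1 ran from 4 to 58.7 normalized counts over the 6 libraries, CACNA1C from 2.67 to 21.5, KCNC4 from 309 to 987 and P2RX7 from 261 to 732; these examples were chosen after their values were seen.

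**Figure D4:**
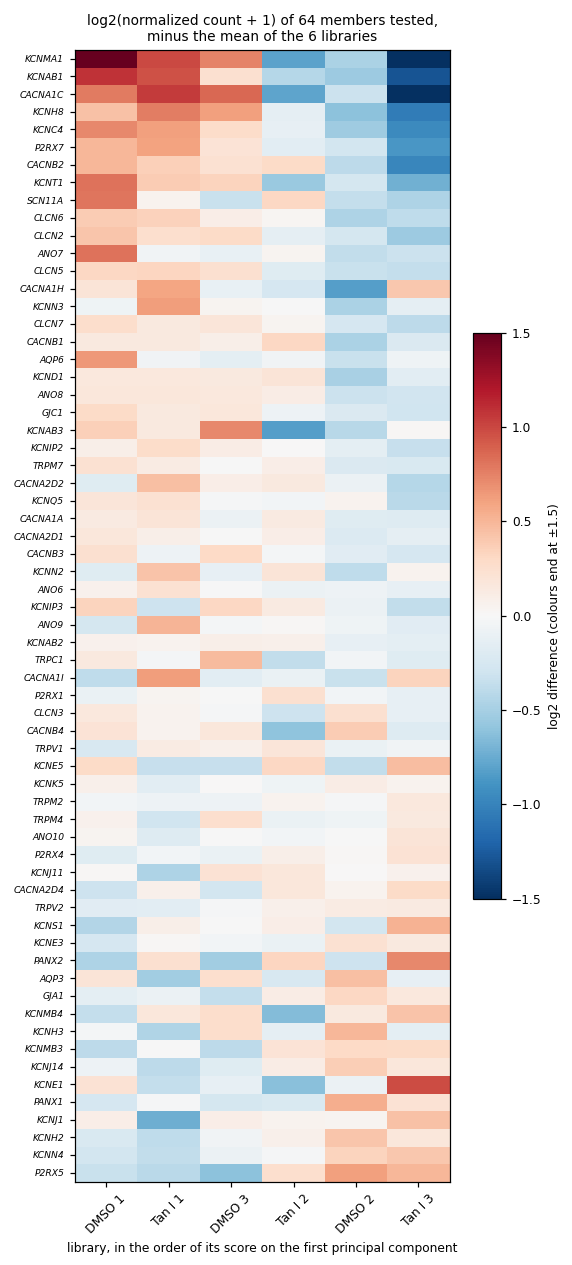
Log2(normalized count + 1) of 64 of the 66 members tested minus their mean over the 6 libraries, with libraries ordered by their score on the first principal component and genes by the contrast between the libraries at its ends. KCNMA1, KCNAB1 and CACNA1C stand above their means in DMSO 1, Tan I 1 and DMSO 3 and below them in DMSO 2 and Tan I 3, and P2RX5, KCNN4 and KCNH2 do the reverse.

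The members below a mean of 10 normalized counts included KCNN1, KCNK17, KCNV2, CACNA1E, CACNA1S, TRPM1, AQP11 and AQP8. Apart from AQP8, the reads of these genes overlapped between the groups. KCNV2 had 19, 4 and 10 reads in DMSO and 10, 7 and 2 in Tan I, and CACNA1E had 11, 10 and 12 and then 18, 5 and 3.

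**Figure D5:**
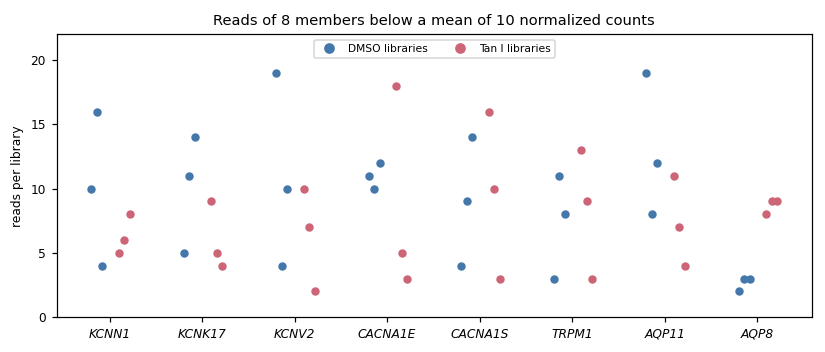
Reads per library for 8 of the 9 members below a mean of 10 normalized counts, with each point 1 library. AQP8 is the single gene whose Tan I libraries (8, 9 and 9 reads) lie apart from its DMSO libraries (2, 3 and 3 reads).

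Other channel genes outside these families were read from a list of 71 symbols, of which 48 were listed and 47 tested. Of the 47, limma called 0 higher and 1 lower without adjustment, beside the 2.42% of all genes, and their median log2 fold change was -0.01. The gene called was TTYH2, a tweety-family membrane protein, with 360, 318 and 394 normalized counts with DMSO and 312, 235 and 263 in Tan I. Its groups did not overlap, and limma gave a log2 difference of -0.41 (SE 0.16), with an adjusted p of 0.999 (0.0391 before adjustment). The calcium sensor STIM1 and the store-operated channel ORAI1 had log2 fold changes of -0.01 and 0.14, and 0 of the 12 genes of calcium entry and release were called. The 7 mitochondrial channel genes, 5 proton and acid channel genes, 4 cyclic nucleotide-gated and epithelial sodium channel genes, 4 subunits of the volume-regulated anion channel, 3 mechanosensitive channel genes and 4 endolysosomal cation channel genes tested also had 0 calls. CLIC1 had the highest mean of the list over all 6 libraries, with 7308 ± 1830 normalized counts under DMSO against 9548 ± 3018 under Tan I (mean ± SD over 3 libraries), and its groups overlapped. With DMSO alone the endolysosomal channel gene TPCN1 was higher, at 7991 ± 375.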

How the data were processed

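RNA-seq of NB4 cells was read from 1 table of the study. By the study's methods, read pairs were placed on GRCh38 by STAR, those with several locations were discarded, and featureCounts and DESeq2 followed; versions, annotation and strand setting are not given in the sources used here. The deposited signal values are normalized counts, that is, reads divided by 1 size factor per library by the authors; 100% were whole multiples, within 0.01 read, of the smallest nonzero value, from which reads were recovered. Control columns were taken as the DMSO group. The authors' own fold changes, test statistics and p-values, also in the table, and their mean were not used.

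Members were matched by symbol. Members and lists were chosen with earlier results of these data known. limma 3.58.1 in R 4.3.3 (eBayes with trend) was fitted to log2(normalized count + 1) of all 16887 genes with a mean of at least 10, with treatment as the only term, and p-values were adjusted over all of them; on this scale changes of weak genes are understated. A call needed p up to 0.05 together with a log2 fold change of 0.25 or more in size. Alternatives were other pseudocounts, filters and scalings, no trend, edgeR 4.0.16, DESeq2 1.42.0, the replicate number as a block, the first principal component as a covariate, a log2 fold threshold of 0.5 and leaving out each library. The fits were run on simulated reads with known changes, drawn independently for each library and so without the shared axis of the first component. That run cannot give their error rates in these data, and nothing is read from it.

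Named members were those called, those with non-overlapping groups and a log2 fold change of at least 0.25, the most abundant overall and per role, PANX2 and AQP8; others are named to account for the members or were chosen after their values were seen. Of the 75 members, 3 are counted in the totals but not reported here by name. Positions and exon lengths are from GENCODE release 44 (GRCh38), in which 75 of 75 identifiers were found. Exons of an antisense gene overlap 32 members, and exons of another gene on the same strand overlap 12, so reads of these members may be shared.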

Additional observations from a re-analysis of the deposited data

How the results depend on the processing

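The unadjusted count of 3 members was 2 to 6 when 1 library was left out (0.947% to 8.86% of all genes), 7 in eBayes without the trend (3.29%) and 10 with the score on the first principal component as covariate, under which 8.86% of all genes were called. With adjustment, 0 members became 1 with DESeq2 (0.107% of the genes given an adjusted p) and 3 with that covariate (1.15% of all genes). The adjusted count was 0 when any library was left out. The cause was not tested. Calls gained were KCNMB3 and CACNB3 without DMSO replicate 2, KCNMA1, CACNA1C and CACNB4 without Tan I replicate 1, and CACNA1I without Tan I replicate 2. Of the 66 members tested, 34 took both signs over the alternatives, CLCN6, KCNN4, KCNAB2 and KCNH2 among them. The 8 with non-overlapping groups kept their sign. Leaving out a library, another pseudocount, no trend or the replicate block cannot change the sign of such genes, so nothing is read from this. PANX2 and AQP3 kept the unadjusted call in all 17 fits, and CACNA2D4 in 11 of 17. The median log2 fold change of the members stayed between -0.09 and 0.03; rescaling to equal totals moved the median of all genes by -0.06. With the replicate number as a block (replicate block) 3 members were called without adjustment, beside 2.06% of all genes, and 0 members and 0 genes with it. Same-numbered libraries did not all deviate together (r of 0.75, -0.09 and -0.45 across genes, which are not independent replicates). The values within a group are tied to each other, so they cannot show whether same-numbered libraries were handled together. The labels give only the shared number. DESeq2 gave no adjusted p to 1965 genes. Reads on weak members limit what can be seen.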
